A study of Mus musculus with 6 samples.

Results

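The genes described here are the axoneme genes of motile cilia that can be recognised by their symbols: dynein heavy chains (Dnah), dynein intermediate chains (Dnaic), dynein assembly factors (Dnaaf), radial spoke proteins (Rsph), tektins (Tekt), cilia and flagella associated proteins (Cfap) and subunits of the nexin-dynein regulatory complex (Drc). A gene was included when its symbol began with one of these 7 stems followed by a digit, without regard to its values. Of 23282 rows in the count tables, 48 met this rule, and all 48 had a count in at least 1 library. They comprised 17 Cfap, 11 Dnah, 7 Rsph, 5 Tekt, 4 Dnaaf, 2 Dnaic and 2 Drc genes.

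The RNA came from forebrain of wild-type C57BL/6J male mice, 8 to 10 weeks old, kept for 10 days on either a normal chow diet (NCD) or a high-fat diet (HFD) with 60 kcal% fat. The olfactory bulbs and the cerebellum had been removed. There were 3 NCD and 3 HFD libraries, prepared with QuantSeq, a method that primes on the poly(A) tail and places 1 read near the 3′ end of a transcript. The labels do not say whether the libraries of a diet came from separate mice, so the p-values below measure the spread between these libraries, which may be technical.

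A motile cilium is built on an axoneme, a ring of doublet microtubules around a central pair. Outer and inner dynein arms on each doublet slide it along its neighbour, and radial spokes, the central pair and the nexin-dynein regulatory complex turn the sliding into a regular beat. In the forebrain such cilia stand in tufts on ependymal cells, which line the ventricles and move cerebrospinal fluid, while most neurons and astrocytes carry a single primary cilium without dynein arms. The transcription factors FOXJ1 and RFX switch on axoneme genes, and RFX proteins bind the X-box, an inverted repeat whose arms resemble GTTGCC and its reverse complement GGCAAC.

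Promoter sequences were compared first, as a feature that the choice of genes did not use. For 43 of the 48 genes the 250 bases before the annotated start were read from RefSeq (GRCm38.p6). The arm GTTGCC, searched on both strands, was found in 13 of the 43 (30.2%), compared with 10.7% of 10447 promoters of genes tested for diet and 10.5% of all 27025 promoters. In these 13 genes there were 16 matches, and 9 of the 16 (56.2%) lay within 40 bases of the start, compared with 19.3% of the 1205 matches in genes tested. The median distance to the start was 30.5 bases in the axoneme genes and 116 bases in the genes tested. The windows below are shown because they hold these arms next to the start. Each runs 5′ to 3′ on the strand of its gene, holds the arm in capitals with up to 20 bases on either side, and stops at the last base before the start. The genes range from dynein arms and their assembly to tektins and a central pair protein, and Tekt1 has a second arm in lower case at its first bases:
Dnah10: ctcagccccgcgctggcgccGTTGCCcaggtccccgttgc
Dnaic2: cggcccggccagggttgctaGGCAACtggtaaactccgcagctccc
Dnaaf2: ctcctcccaggcgttactatGGCAACaaa
Drc1: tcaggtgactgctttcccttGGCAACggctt
Tekt1: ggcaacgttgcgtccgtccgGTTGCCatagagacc
Tekt2: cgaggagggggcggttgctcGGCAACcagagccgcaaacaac
Cfap46: tggtctgggccccgtctctaGGCAACcgc

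On GRCm38.p6 these windows are chr5:124725045-124725084 (Dnah10, plus strand), chr11:114727373-114727418 (Dnaic2, plus), chr12:69198430-69198458 (Dnaaf2, minus), chr5:30281362-30281392 (Drc1, plus), chr11:72361883-72361917 (Tekt1, minus), chr4:126325689-126325730 (Tekt2, minus) and chr7:139683816-139683844 (Cfap46, minus). In Cfap44 and Dnaaf2 the arm was the second part of a longer inverted repeat. It is printed next with the whole repeat in capitals, from chr16:44394752-44394798 on the plus strand:
Cfap44: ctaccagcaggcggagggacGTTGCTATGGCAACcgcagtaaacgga

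This form, GTT followed after 5 bases by GGCAAC, was defined after the letters had been seen. It was present in 2 of the 43 axoneme promoters (4.65%) and in 0.67% of the promoters of genes tested, and each match in the axoneme genes overlaps a GTTGCC match. A symmetric X-box, GTNNCC and GGNNAC with NN between them, searched on both strands, was present in 2 of the 43 (Dnaaf5 and Tekt4, 4.65%), compared with 1.91% of the genes tested. A forkhead spelling, TGTTTAC on either strand, was present in 4 of the 43 (Cfap20, Cfap43, Dnah17 and Tekt3, 9.30%), compared with 2.04%. The general promoter element CCAAT, on either strand, was present in 16 of the 43 (37.2%), compared with 36.1% of the genes tested. In the 24 axoneme promoters whose genes were themselves tested, CCAAT was present in 13 (54.2%) and GTTGCC in 7 (29.2%).

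The arm was found beyond these symbols too. GTTGCC stood in 18 of 47 promoters (38.3%) of a list of other axoneme genes, in 7 of 25 (28.0%) of intraflagellar transport genes, which carry cargo along any cilium, and in 4 of 25 (16.0%) of primary cilium genes. The median GC content was 54% in the promoters of the axoneme genes and 60% in those of the genes tested, and its part in these shares was not tested. A match is a run of letters and was not shown to be bound in these mice.

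**Figure D1:**
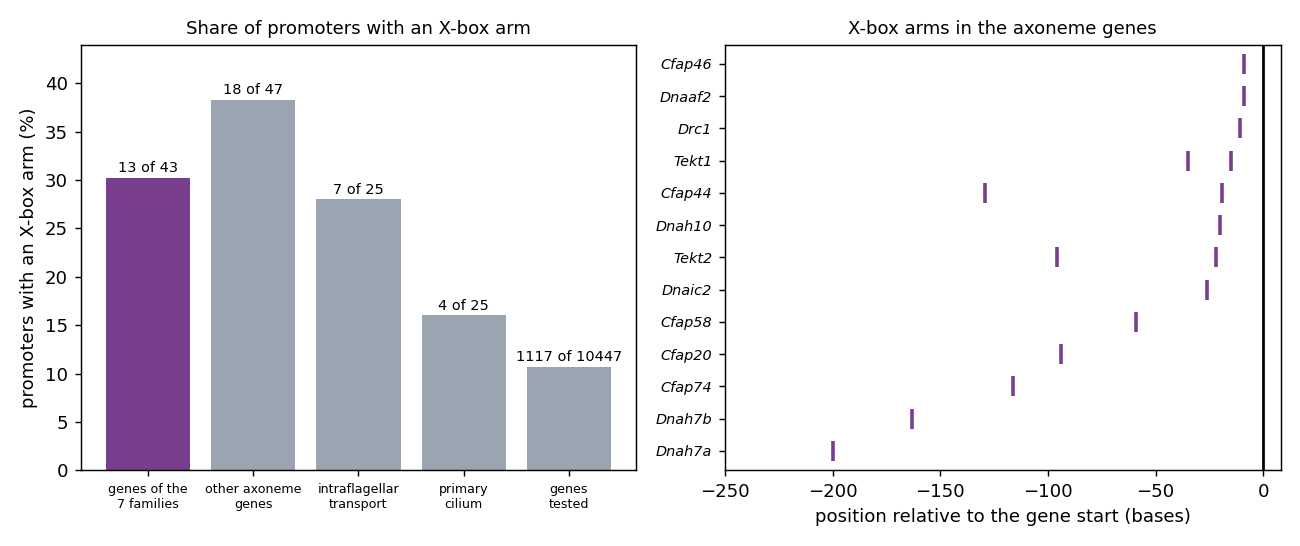
Left, the percentage of promoters (250 bases before the start) that hold the X-box arm, with the number of promoters above each bar; right, the position of each arm in bases relative to the gene start, 1 row for each of the 13 axoneme genes with a match. The share was 30.2% in the axoneme genes and 10.7% in the genes tested, and 9 of the 16 marks lie within 40 bases of the start.

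The axoneme genes were sparse in whole forebrain RNA. The total count was between 6842785 and 9689372 per library, and the 48 genes together received between 2325 and 3447 of these counts, a share of 0.034% to 0.0384%. The 95% Wilson interval was 0.0326% to 0.0354% for the library with the lowest share and 0.0371% to 0.0397% for that with the highest, and covers counting error only. The median gene had a mean of 13.9 counts per library, 27 of the 48 had a mean below 20, and 40 were counted in every library. A floor of 3 counts corresponds to between 0.316 and 0.432 TMM-normalized CPM, depending on the library (TMM scales the libraries to each other by the bulk of their genes). After a filter on low counts 29 of the 48 could be tested, with a median mean count of 34.3 compared with 182.5 over all 13771 genes tested. Filtering required about 1.17 CPM in at least 3 libraries. Of the 29, 3 were over this level in all NCD but not in all HFD libraries (Cfap44, Cfap46 and Cfap53) and 2 in all HFD but not in all NCD libraries (Dnaaf3 and Tekt1).

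Transcripts that mark ependyma were present. All 18 genes of a list of ependymal markers had counts, with a summed level between 115 and 140 TMM-normalized CPM in the 6 libraries. Pltp, which is also made elsewhere, held the largest part of this sum, with means of 60.5 CPM under NCD and 61.0 under HFD. Of the 18, 15 could be tested, and their median log2 fold change was -0.01. At an unadjusted p under 0.05, 0 of the 15 differed between the diets, where the share over all genes tested was 3.68%. In bulk tissue fewer cells of a type and less RNA per cell cannot be told apart, and a count cannot be assigned to ependyma. Cfap20, Cfap36 and Cfap97, which are known to be expressed also in tissues without motile cilia, held 56.8% of all counts of the 48 genes.

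Whether 10 days of HFD altered the axoneme genes was asked with edgeR's quasi-likelihood test over all 13771 genes. Rsph1, a radial spoke head protein, had the lowest unadjusted p of the 29 genes tested and lower counts in each HFD library than in any NCD library. At an unadjusted p under 0.05, 1 of the 29 was lower under HFD (Rsph1), where the share over all genes tested was 1.98%, and 0 were higher, where it was 1.71%. With Benjamini-Hochberg adjustment 0 of the 29 passed 0.05, and so did 0 of all genes tested (0%), of which 507 (3.68%) had an unadjusted p under 0.05. Of these 507, 272 were lower and 235 higher, and without TMM, by library size alone, 303 were lower and 152 higher. DESeq2 gave 2 genes with an adjusted p under 0.05 and the fit without a count filter 23 (0.121% of the genes it tested), and 0 of the 48 were among them. These 23 include Gh, Prl, Cga and Fshb, pituitary hormone genes whose counts come almost wholly from HFD replicate 3. Of the 29 log2 fold changes 21 were negative and 8 positive, while 50.6% of those of all genes were negative. Their median was -0.11, compared with -0.002 over all genes, and the standard error of a single axoneme gene had a median of 0.34.

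In the sum over the 48 genes the diets differed by less than the spread between libraries. The NCD libraries had 341, 372 and 356 TMM-normalized CPM and the HFD libraries 335, 361 and 372, with means of 356 ± 15.5 and 356 ± 19.3 (SD, n = 3). The groups overlapped over most of their range. Leaving out Cfap20, Cfap36 and Cfap97, a choice made after the values were seen and therefore given without a test, the NCD libraries had 155, 165 and 163 CPM and the HFD libraries 139, 151 and 146. The means were then 161 ± 5.26 and 145 ± 5.78 (SD, n = 3), and the ratio of HFD to NCD was 0.90, with no overlap between the groups. With other scalings this ratio was between 0.888 and 0.902, and the groups were separate in each case. With 1 library left out it was between 0.884 and 0.92. Groups that are separate stay so when 1 library is dropped, apart from small shifts in scaling. Those fits therefore do not check the separation. Of the genes left out, Cfap36 and Cfap97 had positive log2 fold changes (0.18 and 0.15) and Cfap20 a negative value (-0.06). Without Cfap20, Cfap36 and Cfap97 the sum still holds the row of Dnaaf1, whose reads are shared with another gene (below). Without that row too the ratio was 0.91 with separate groups. Leaving out Dnaaf1, Rsph3a and Rsph3b instead gave a ratio of 1.01 (312 ± 13.2 and 315 ± 20.1 CPM, SD, n = 3), and the groups overlapped. These are some of the rows that may share reads, and others, such as Dnah11, were kept. That sum still holds Cfap20, Cfap36 and Cfap97, as does the sum over the 48 genes, so it does not check the ratio of 0.90.

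**Figure D2:**
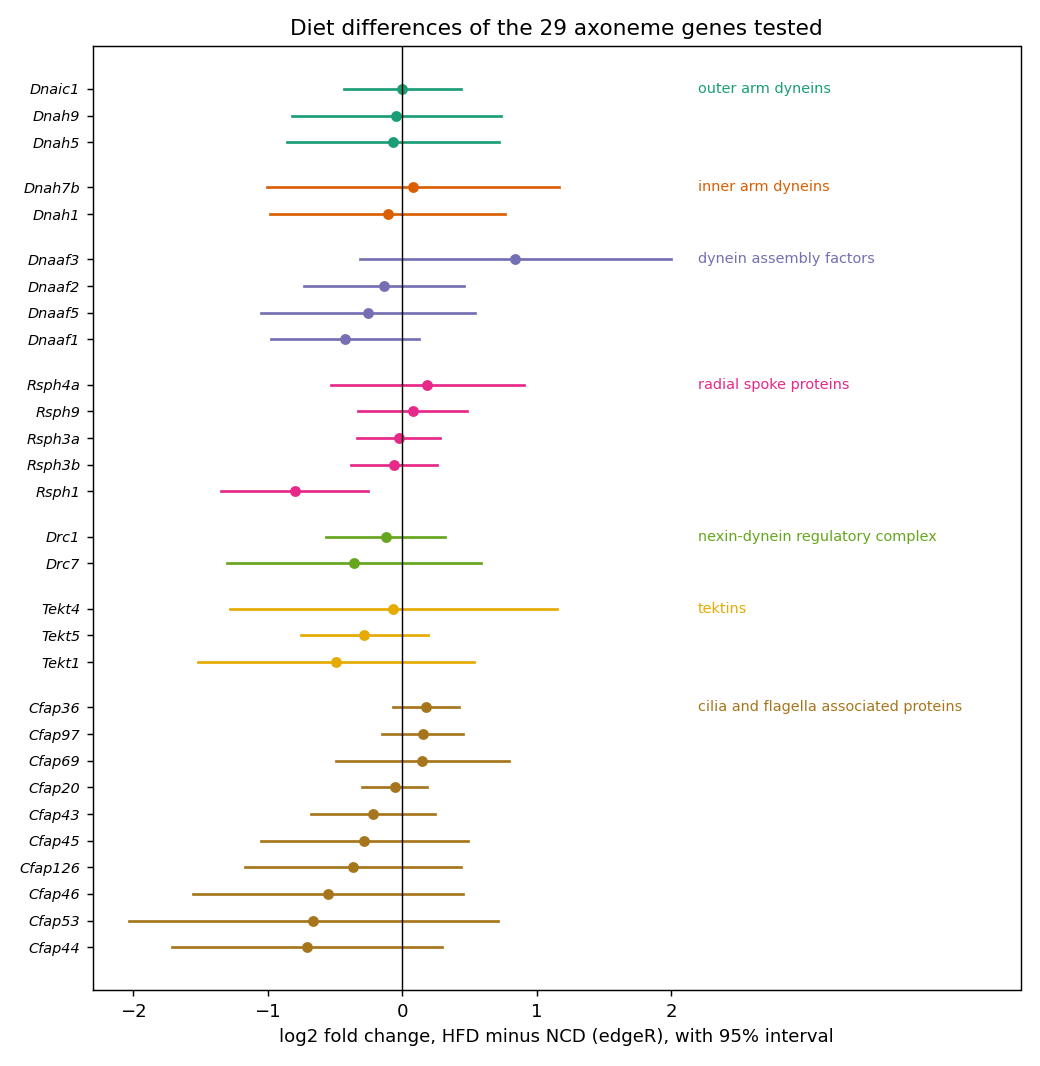
The log2 fold change (HFD minus NCD) of the 29 axoneme genes tested, ordered by role, with 95% intervals from edgeR. Only the interval of Rsph1, from -1.34 to -0.25, excludes 0, and intervals are widest for genes with few counts such as Cfap53 and Tekt4.

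The outer dynein arms give the beat its power. Dnaic1, an intermediate chain, had 18.4, 16.1 and 11.4 TMM-normalized CPM under NCD and 11.5, 15.6 and 18.6 under HFD. The lowest and the highest library of either diet lay close to those of the other, and the log2 fold change was 0.00 ± 0.21 (SE). The last exon of Dnaic1 overlaps an exon of Enho on the opposite strand by 15 bases (chr4:41638144-41638158), and Enho had 395 to 638 counts where Dnaic1 had 80 to 149. The heavy chains Dnah5 and Dnah9, whose human counterparts are mutated in ciliary dyskinesia, had log2 fold changes of -0.07 ± 0.37 (SE) and -0.04 ± 0.37 (SE), with 13 to 30 counts per library.

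Dnah11, another outer arm heavy chain, was under the filter. It had 7, 12 and 17 counts under NCD and 5, 4 and 5 under HFD, so that each HFD library was below each NCD library. The log2 fold change in the fit without a filter was -1.11 ± 0.71 (SE) with an unadjusted p of 0.119 by edgeR's quasi-likelihood test. Its unadjusted p was 0.0365 when log2 values were quantile normalized and tested with limma. This value was selected for being under 0.05. Fits with 1 library left out aside, 8 of 9 alternatives gave no such p. Exons of Dnah11 and Cdca7l overlap by 642 bases on opposite strands (chr12:117877982-117878623, the last exon of Dnah11), and the row of Cdca7l had 6, 11 and 19 counts under NCD and 9, 4 and 2 under HFD. The sources used here do not say whether the counting used strand, so the reads of these rows cannot be told apart. Dnaic2, Dnah8 and Dnah17 had means of 9.83, 3.67 and 2.50 counts per library and overlapping groups. Summed over the 7 outer arm genes the level was 24.1, 25.5 and 20.4 CPM under NCD and 18.1, 24.9 and 25.2 CPM under HFD, with overlap.

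Inner arm dyneins shape the waveform. Dnah10 had 8, 11 and 14 counts under NCD and 4, 1 and 2 under HFD, or 1.22 ± 0.245 and 0.320 ± 0.237 TMM-normalized CPM (SD, n = 3). The highest HFD library had 4 counts and the lowest NCD library 8, and the HFD mean is close to what the floor of 3 counts amounts to. The log2 fold change in the fit without a filter was -1.94 ± 0.84 (SE), with an unadjusted p of 0.0224 and an adjusted p of 0.941 (quasi-likelihood test of edgeR, Benjamini-Hochberg adjusted). Single libraries decided this call: leaving out HFD replicate 2 gave an unadjusted p of 0.108, and leaving out NCD replicate 3 gave 0.069. Of the other inner arm chains, Dnah1 and Dnah7b had log2 fold changes of -0.11 ± 0.41 (SE) and 0.08 ± 0.51 (SE). Dnah2, Dnah6 and Dnah7a were under the filter with means of 5.17, 7.83 and 2.17 counts. Dnah7a and Dnah7b share 9.53% of the 50-base words at the 3′ ends of Dnah7a, and reads from there could be counted in both rows.

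The dynein assembly factors fold and load the arms in the cytoplasm, and all 4 could be tested. Dnaaf1 had 52, 62 and 55 counts under NCD and 30, 37 and 42 under HFD. In TMM-normalized CPM this was 6.30 ± 0.458 and 4.71 ± 0.930 (SD, n = 3), and the highest HFD library, with 5.77 CPM, lay just below the lowest NCD library, with 5.79. The log2 fold change was -0.42 ± 0.26 (SE), with an unadjusted p of 0.124 by edgeR's quasi-likelihood test, and the groups overlapped under upper-quartile scaling and quantile normalization. The row of Taf1c, a subunit of a factor for ribosomal RNA transcription on the opposite strand, had 51, 59 and 56 counts under NCD and 30, 37 and 39 under HFD. These rows differed by at most 3 counts in a library, and their 3′ ends overlap by 584 exon bases (chr8:119597871-119598454), so the reads of Dnaaf1 and Taf1c cannot be told apart. Dnaaf2 and Dnaaf5 had log2 fold changes of -0.13 ± 0.28 (SE) and -0.25 ± 0.38 (SE). For Dnaaf3, with 6, 3 and 14 counts under NCD and 10, 14 and 12 under HFD, it was 0.84 ± 0.55 (SE). It was 1.53 (unadjusted p = 0.0285 by edgeR's quasi-likelihood test) when NCD replicate 3 was left out, a fit selected for its p. Leaving out NCD replicate 2 gave 0.45.

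**Figure D3:**
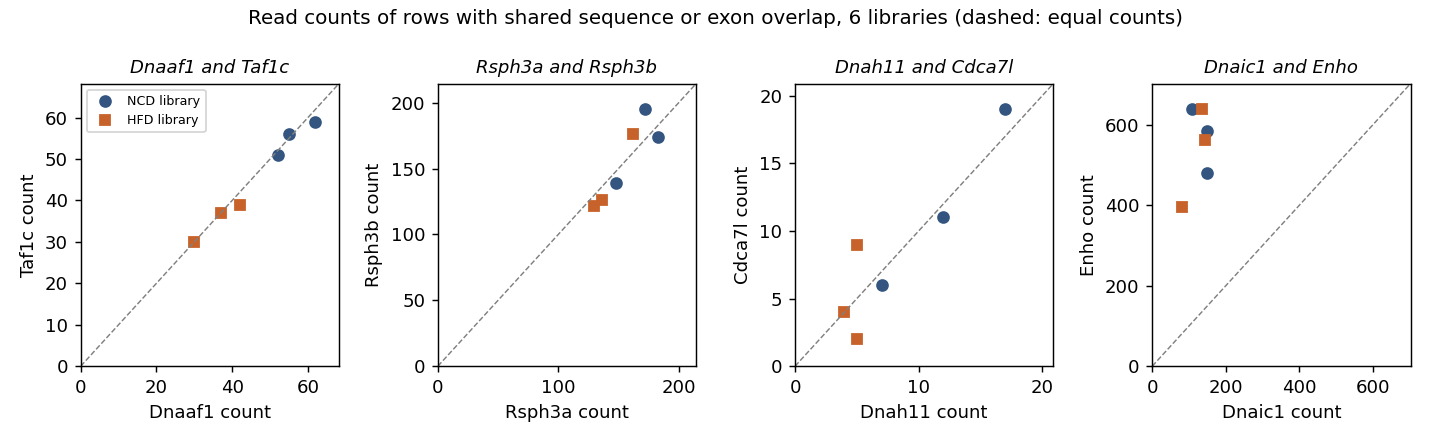
Read counts of 4 axoneme genes (x axis) and of the row with which each overlaps or shares sequence (y axis) in the 6 libraries. Dnaaf1 and Taf1c differ by at most 3 counts and lie on the dashed line of equal counts, Rsph3a and Rsph3b lie near it, and Enho has several times the counts of Dnaic1.

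Radial spokes reach from the doublets to the central pair, and Rsph1 sits in their heads. It had 66, 71 and 64 counts under NCD and 38, 35 and 27 under HFD. In TMM-normalized CPM these were 8.15, 7.66 and 6.74 compared with 5.47, 3.83 and 3.71, and every HFD library was below every NCD library. The means were 7.52 ± 0.713 and 4.34 ± 0.984 (SD, n = 3). The log2 fold change was -0.80 ± 0.26 (SE, 95% interval -1.34 to -0.25), with an unadjusted p of 0.00684 and an adjusted p of 0.979 (quasi-likelihood test of edgeR, Benjamini-Hochberg adjusted). The fold change was between -0.82 and -0.66 under the other settings and between -0.99 and -0.71 with 1 library left out, each time with an unadjusted p under 0.05. Rsph1 and Dnah10 are also in the list of lower genes that the study drew from these same libraries, which is therefore not independent evidence. An exact permutation test of 3 against 3 libraries cannot give a p below 0.1. The gene lies at chr17:31255019-31277383 on the minus strand, and no exon of another annotated gene overlaps it.

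The means of the other 4 spoke genes tested were closer between the diets. Rsph9, a head protein as well, had 9.75, 10.8 and 9.17 TMM-normalized CPM under NCD and 9.21, 11.3 and 10.9 under HFD, a log2 fold change of 0.08 ± 0.19 (SE). Rsph4a, the remaining head protein tested, had a log2 fold change of 0.19 ± 0.34 (SE). Their 95% intervals, -0.33 to 0.49 and -0.53 to 0.91, overlap that of Rsph1, and the difference between the genes was not tested. Rsph3a and Rsph3b, copies of a stalk protein, had 18.3, 18.5 and 19.3 CPM (Rsph3a) and 17.2, 21.0 and 18.3 CPM (Rsph3b) under NCD. Under HFD they had 19.6, 17.7 and 17.9 CPM (Rsph3a) and 18.1, 19.2 and 16.8 CPM (Rsph3b), with log2 fold changes of -0.03 and -0.06 (standard error 0.15 each). The copies share 54.2% of the 50-base words of their last 500 transcript bases, counted from Rsph3a, so their division between the rows is uncertain. Rsph6a and Rsph14 had means of 0.667 and 1.67 counts, too few for a fold change to be read. All 7 spoke genes summed to 57.8, 61.0 and 58.7 CPM under NCD and 55.4, 56.7 and 55.1 CPM under HFD. Each HFD sum was below each NCD sum, and Rsph1 held most of the difference.

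**Figure D4:**
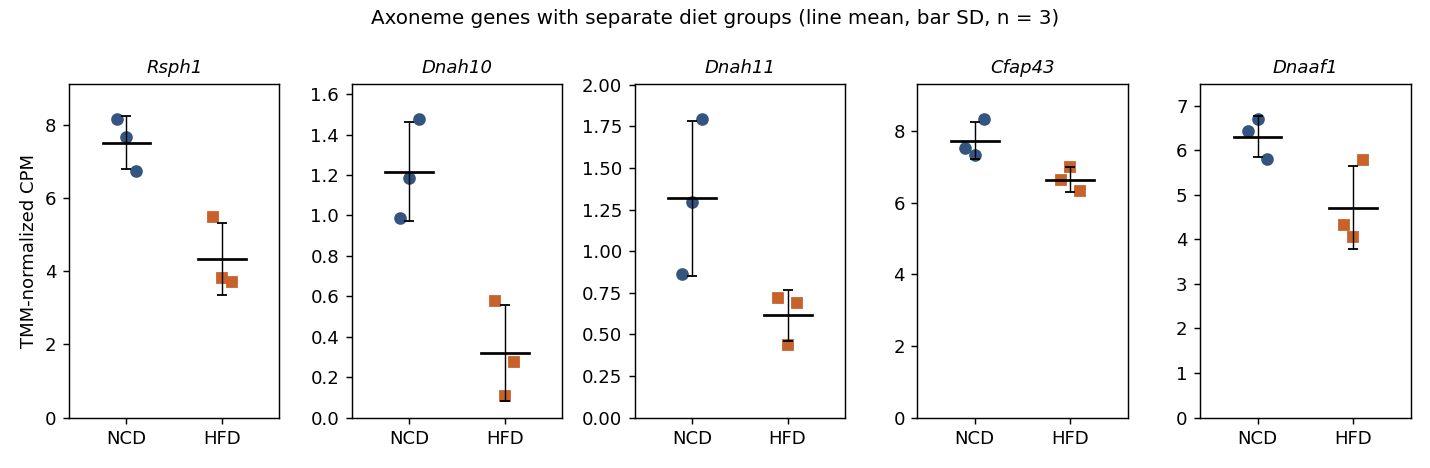
TMM-normalized CPM of the 5 axoneme genes whose HFD libraries were all below the NCD libraries: points are libraries, lines means and bars SD (n = 3). Dnah10 and Dnah11 were under the count filter, and the rows of Dnaaf1 and Dnah11 cannot be told apart from those of Taf1c and Cdca7l. The groups come closest for Dnaaf1, at 5.77 CPM under HFD and 5.79 under NCD.

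The nexin-dynein regulatory complex links neighbouring doublets. Drc1, its central subunit, had 8.64, 10.03 and 11.3 TMM-normalized CPM under NCD and 7.34, 9.72 and 10.4 under HFD. The groups overlapped and the log2 fold change was -0.12 ± 0.21 (SE). Drc7 had a log2 fold change of -0.36 ± 0.45 (SE).

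Tektins form filaments in the wall of the doublet. Tekt5 had 7.90, 13.7 and 9.90 CPM under NCD and 8.205, 8.96 and 8.80 under HFD. NCD replicate 2 alone lay well above the others, and the log2 fold change of -0.28 ± 0.22 (SE) became -0.04 without it. Tekt1 and Tekt4 had log2 fold changes of -0.49 ± 0.49 (SE) and -0.06 ± 0.57 (SE), and Tekt2 and Tekt3 had means of 3.33 and 0.333 counts.

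The Cfap genes are named for their presence in cilia and flagella and differ in function. Cfap36, which binds the small GTPase ARL3, had the most counts, with 104, 116 and 101 TMM-normalized CPM under NCD and 105, 124 and 134 under HFD. HFD replicate 1 lay within the NCD range and the other two HFD libraries above it, and the log2 fold change was 0.18 ± 0.12 (SE, unadjusted p = 0.143 by edgeR's quasi-likelihood test). Leaving out HFD replicate 1 gave 0.27 and an unadjusted p of 0.0406, and leaving out HFD replicate 3 gave 0.10. Cfap20, which closes the inner junction of the doublet, had 52.5, 59.1 and 56.6 CPM under NCD and 49.4, 55.3 and 57.1 under HFD. Its groups overlapped, with a log2 fold change of -0.06 ± 0.12 (SE). Cfap97 had 28.8, 31.6 and 35.3 CPM under NCD and 41.5, 30.4 and 34.9 under HFD, and its log2 fold change was 0.15 ± 0.14 (SE).

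Cfap43 and Cfap44 form a tether at the base of an inner dynein arm. Cfap43 had 7.53, 7.34 and 8.32 CPM under NCD and 6.62, 6.99 and 6.32 under HFD. The HFD libraries were all below the NCD libraries, by a small step: the log2 fold change was -0.22 ± 0.22 (SE). Its partner Cfap44, whose promoter carries the longer repeat shown above, had 17, 11 and 36 counts under NCD and 8, 15 and 11 under HFD. The groups overlapped, and its log2 fold change of -0.71 ± 0.47 (SE) became -1.03 (unadjusted p = 0.0465) when NCD replicate 2 was left out and -0.17 when NCD replicate 3 was left out.

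Of the remaining Cfap genes tested, Cfap45 and Cfap53 are inner proteins of the doublet, Cfap126 (Flattop) places basal bodies, Cfap69 is needed in sperm and olfactory cilia, and Cfap46 belongs to the central pair. Their log2 fold changes were -0.28, -0.66, -0.36, 0.15 and -0.55 in this order, with standard errors between 0.30 and 0.65. Cfap53 was counted 11, 15 and 15 times under NCD and 7, 16 and 0 times under HFD, where the 0 allows up to 0.412 CPM. In 7 Cfap genes under the filter the groups overlapped.

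**Figure D5:**
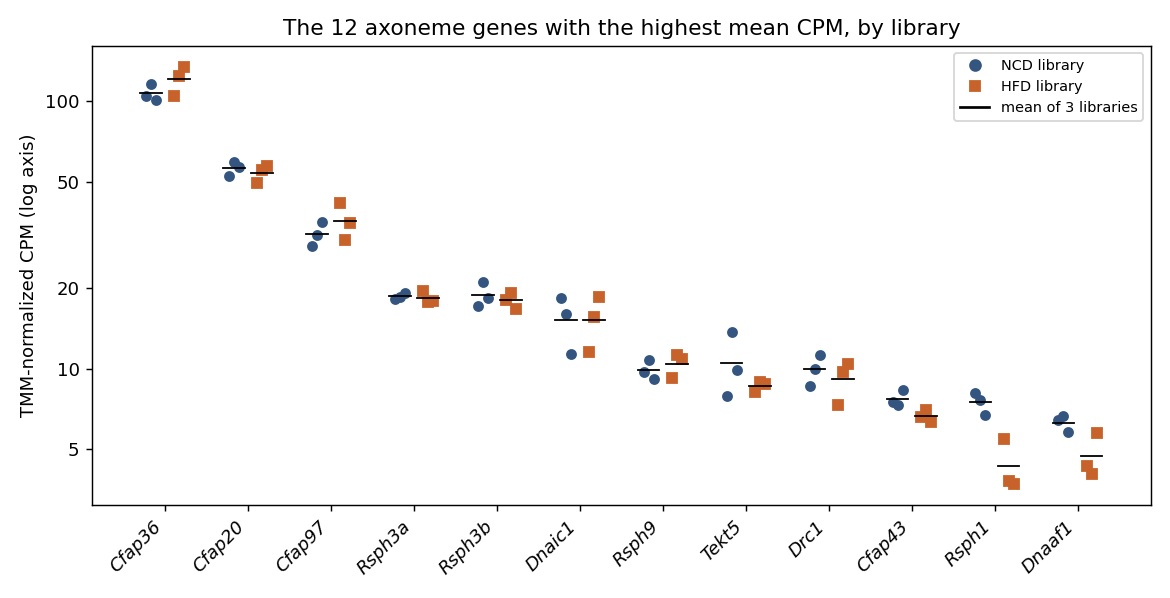
TMM-normalized CPM (log axis) of the 12 axoneme genes with the highest mean, in each NCD (circles) and HFD (squares) library, with the mean of 3 libraries as a line. Points of the diets intermingle for 9 genes and are separate for Cfap43, Rsph1 and Dnaaf1.

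Counting genes whose libraries did not overlap, 3 of the 29 tested had all HFD libraries below the NCD libraries (Rsph1, Cfap43 and Dnaaf1), compared with 4.49% of all genes tested, and 0 had them above, compared with 4.31%. With Dnaaf1 set aside for its shared reads, 2 remain. Among the 19 genes under the filter, 2 had all HFD libraries below (Dnah10 and Dnah11), compared with 3.02% of 5165 genes under the filter. The reads of Dnah11 cannot be told apart from those of Cdca7l, and with it set aside only Dnah10 remains. At an unadjusted p under 0.05, 1 of the 19 was lower, compared with 2.23%. Of the 19, 0 had all HFD libraries above, compared with 3.35%, or a higher value at such a p, compared with 1.53%. Of these 19, 11 had negative and 8 positive log2 fold changes, with standard errors between 0.64 and 2.03.

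The libraries of a diet differed among themselves. NCD replicate 3 was the highest library for 10 of the 29 genes (34.5%), compared with 21.4% of all genes tested, and NCD replicate 2 for 7 (24.1%), compared with 13.4%. In the opposite direction NCD replicate 1 was the lowest for 7 of the 29 (24.1%), compared with 13.1% of all genes. HFD replicate 3 was the lowest for 9 (31.0%), a share near the 27.1% of all genes. The median log2 fold change of the 29 was -0.02 without NCD replicate 3 and -0.24 without HFD replicate 2. Pituitary transcripts summed to 1276 CPM in HFD replicate 3 and to between 4.75 and 13.6 CPM elsewhere, and liver transcripts to 53.0 CPM in NCD replicate 2 and to between 5.77 and 28.3 CPM elsewhere. Without these 2 libraries, a choice made after seeing the data, Rsph1 was still the 1 gene with an unadjusted p under 0.05, and Dnah10 had a p of 0.0839.

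A list of regulators of cilia formation was read beside the axoneme genes. Foxj1 had 8.76, 10.2 and 12.7 TMM-normalized CPM under NCD and 7.20, 9.40 and 8.52 under HFD. The groups overlapped, with a log2 fold change of -0.34 ± 0.21 (SE, unadjusted p = 0.133 by edgeR's quasi-likelihood test). Of 7 regulators tested, 1 was lower at an unadjusted p under 0.05 (Rfx4, log2 fold change -0.67 ± 0.20) and 0 were higher, where the shares over all genes were 1.98% and 1.71%. The study also names Rfx4 among its affected genes, from these same libraries, which is therefore not independent evidence. Whether Rfx4 acts on the axoneme genes here was not tested.

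Other axoneme genes, whose symbols begin differently, were spread around 0. Of 45 tested, 20 had negative and 25 positive log2 fold changes with a median of 0.02. At an unadjusted p under 0.05, 2 were lower and 3 higher, where the shares over all genes tested were 1.98% and 1.71%. After adjustment 0 passed. The lower ones were Ccdc37 (log2 fold change -1.14 ± 0.48) and Stk36 (-1.09 ± 0.43), a kinase needed for the central pair. The higher ones were Ccdc176 (0.59 ± 0.23), Lrriq1 (0.52 ± 0.23) and Hydin (1.03 ± 0.45), a central pair protein. The 3 with the highest levels, Tcte1, Dpcd and Dnali1, had log2 fold changes of -0.03, 0.07 and 0.02 with a standard error of 0.12 each.

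The 3 highest ependymal markers were Pltp, Foxj1 (above) and Tm4sf1. Pltp, a phospholipid transfer protein that is also made elsewhere, had 60.5 ± 9.85 CPM under NCD and 61.0 ± 17.4 under HFD, and Tm4sf1 10.2 ± 2.52 and 8.56 ± 1.41 (SD, n = 3). Their log2 fold changes were 0.01 ± 0.18 and -0.25 ± 0.23 (SE), and over the 15 markers tested they ranged from -0.89 to 0.45. Among 30 genes of intraflagellar transport 1 was lower (Wdr19, log2 fold change -0.40 ± 0.16) and 1 higher (Ift74, 0.37 ± 0.14) at an unadjusted p under 0.05. Among 25 primary cilium genes 0 had such a p. In these lists of regulators, other axoneme, transport and primary cilium genes combined, 4 of 107 were lower and 4 higher. Over all genes tested 1.98% were lower and 1.71% higher at such a p. The median log2 fold change of the 107 was 0.02.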

How the data were processed

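RNA of 6 mouse forebrain samples was sequenced with QuantSeq. The authors aligned trimmed reads to mm10 with Bowtie2, counted unique and multiple alignments with bedtools and deposited whole-number read counts per gene. Annotation and strand of the counting are not given in the sources used here. Analysis used edgeR 4.0.16 under R 4.3.3 (filterByExpr, minimum count 10 and total 15; TMM over the genes kept; common biological coefficient of variation 0.126; glmQLFTest, Benjamini-Hochberg over 13771 genes). Genes under the filter were fitted without it. Standard errors (SE) follow from the fold change and its F statistic.

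Alternatives were DESeq2 1.42.0, its size factors in edgeR, upper-quartile scaling, library size alone, quantile normalization with limma 3.58.1, no filter, a mean count of at least 20, robust estimation, removal of genes above 2% of counts, blocking on the replicate number, and fits without each library in turn. The main edgeR fit and the DESeq2 fit were tested on simulated data, and the other fits were not. Replicates of a diet differed beyond sampling noise (chi-square per degree of freedom 3.55 to 16.7), and none was merged.

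Named genes are those tested with an unadjusted p under 0.05, the 2 in the study's tables, the 12 with the highest mean CPM, genes under the filter with a mean count over 5 and separate groups, Foxj1, genes of other lists with an unadjusted p under 0.05 and the 3 highest of the axoneme and ependymal lists. Other axoneme genes are also named, with a log2 fold change or counts. For Cfap36, Cfap44 and Dnaaf3 the p-values shown with 1 library left out were selected for being under 0.05. The p of Dnah11 with quantile normalization was selected in the same way. The genes and lists were chosen with earlier results of these data known. All 48 symbols matched GENCODE vM21 on GRCm38, from which overlaps and positions come; 3 have exons overlapping another gene on the same and 21 on the opposite strand. Promoters were read from RefSeq. Tables and plots were made in Python 3.11.15 (pandas 2.3.3, numpy 2.4.6, matplotlib 3.10.9, scipy 1.17.1).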

Additional observations from a re-analysis of the deposited data

How the results depend on the processing

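Rsph1 was the 1 axoneme gene tested with a lower value at an unadjusted p under 0.05 under 10 of 11 alternatives, and the count was 2 without a filter, where Dnah10 joined it. It was 1 to 3 with 1 library left out (1.59% to 2.87% of all genes in these fits, and 2.61% without a filter), and that of higher genes 0 to 1 (1.29% to 2.58%). Axoneme genes with all HFD libraries below the NCD libraries numbered 5 without a filter (4.08% of all genes in that fit). They numbered 6 without HFD replicate 3 and NCD replicate 2, the libraries with the most pituitary and liver transcripts (17% of all genes then). With 1 library left out they numbered 5 to 8 (9.12% to 10.3% of all genes). The median log2 fold change was -0.24 to -0.024 with 1 library left out, and the summed level differed by -8.61 to 10.3 CPM (HFD minus NCD). Over all genes, 2 had an adjusted p under 0.05 with DESeq2, 23 without a filter and 0 to 3 with 1 library left out. In the 4 other cilia lists 2 genes were lower at a mean count of at least 20 (1.86% of all genes). With 1 library left out, 1 to 5 of their genes were lower and 2 to 4 higher (1.59% to 2.87% and 1.29% to 2.58% of all genes). Of the axoneme genes under the filter, 2 had an unadjusted p under 0.05 with quantile normalization (5.63% of all genes under the filter), 0 without HFD replicate 3 and NCD replicate 2 (1.49%) and 0 to 1 with 1 library left out (2.37% to 3.50%). The cause of these shifts was not tested.

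Libraries with the same replicate number did not deviate together (correlations -0.03, 0.05 and -0.06). The labels do not say whether the numbers pair the libraries, and these correlations cannot exclude it. With a replicate block 1 axoneme gene was lower (Rsph1) and 0 higher, the other cilia lists had 2 higher genes in place of 4 (1.14% of all genes in place of 1.71%), and 371 genes had an unadjusted p under 0.05 in place of 507.

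Depth limits these genes: 19 of 48 could not be tested, and the standard error of those tested had a median of 0.34 compared with 0.16 over all genes. This standard error is not a limit of detection. Larger differences also went without a call, such as Dnaaf3 at 0.84 ± 0.55 (SE) and Cfap44 at -0.71 ± 0.47 (SE).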

Other observations

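Markers of other cells near the ventricles were read in the same libraries. Of 17 choroid plexus genes tested 1 was higher under HFD at an unadjusted p under 0.05 by edgeR's quasi-likelihood test (Kcnj13, a potassium channel of that epithelium, log2 fold change 0.59 ± 0.24 (SE)), and the summed level was between 1086 and 1370 CPM. Of 7 genes of ventricular neuroblasts and dividing cells 2 were lower (Dlx1, log2 fold change -0.50 ± 0.24 (SE), and Mki67, -1.36 ± 0.58 (SE)), and 6 of the 7 log2 fold changes were negative. Over all genes tested 1.98% were lower and 1.71% higher at such a p, and 50.6% of log2 fold changes were negative. Mki67 had 1.93 ± 0.831 CPM under NCD and 0.772 ± 0.588 under HFD (SD, n = 3). After adjustment 0 of these genes passed 0.05, and the smallest adjusted p among them was 0.979.

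Of 3 tanycyte genes, 9 genes each of astrocytes, neurons, oligodendrocytes, microglia and macrophages, and endothelium, and 8 of meninges and perivascular fibroblasts, 0 had an unadjusted p under 0.05. Of the 3 pituitary genes tested 1 was higher (Gh, whose counts stood at 7943 in HFD replicate 3 and at 12 to 71 elsewhere; Prl, Cga and Fshb, under the filter, had 956, 198 and 35 counts there and at most 5 elsewhere, with adjusted p under 0.05 in the fit without a filter), and of 5 liver genes tested 5 were lower. The part of these transcripts in the axoneme values was not tested beyond leaving out HFD replicate 3 and NCD replicate 2, which have the highest sums. NCD replicate 1, with 28.3 CPM of liver transcripts, stayed in that fit.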
